A study of Mus musculus with 12 samples.

Results

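The unfolded protein response and the integrated stress response were described through 10 genes: Atf4, Ddit3, Atf3, Asns, Trib3, Chac1, Xbp1, Hspa5, Herpud1 and Dnajb9. The genes were chosen by name, and their rows were read from the 25676 rows of the deposited table of TPM (the share of a library's transcripts that a gene contributes, corrected for transcript length and scaled to a fixed sum). Of these genes, 9 had 1 row each. The symbol Ddit3 had 2 rows with different Ensembl identifiers. The row of ENSMUSG00000025408 carried values and was used for Ddit3, and the row of ENSMUSG00000116429 was listed at 0 in every library. All 10 genes were among the 12278 genes with a mean of at least 0.5 TPM, which were tested.

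The livers came from 12 C57BL/6 mice aged 3 to 4 months, 1 bulk RNA-seq library per mouse. The KO mice were labelled Foxa3-Cre YAP1 KO and the controls WT; the labels name no Cre or floxed allele in the WT mice. Foxa3-driven Cre acts in the embryonic foregut endoderm, the origin of hepatocytes and bile duct cells, and macrophages, stellate cells and endothelial cells of the liver lie outside that lineage. The groups were WT male, WT female, KO male and KO female, each of 3 mice, and the replicate numbers are only names. The study compared the KO livers with the WT livers, and the comparison of the sexes within a genotype follows from the same groups.

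Unfolded proteins in the endoplasmic reticulum (ER) are sensed by IRE1, PERK and ATF6. IRE1 splices Xbp1 mRNA into the form that codes for an active factor, ATF6 is cut to release a factor, and PERK phosphorylates eIF2 alpha, which lowers general translation while ATF4 protein is made. Amino acid shortage, double-stranded RNA and heme shortage reach the same eIF2 alpha step through other kinases, which is why the ATF4 arm is called the integrated stress response. Hepatocytes secrete most plasma proteins and depend on this folding capacity. Splicing of Xbp1, translation of Atf4 and phosphorylation were not measured by these values.

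ATF6, XBP1, ATF4 and CHOP bind known promoter elements, so the matches found in the RefSeq windows (GRCm38.p6, 250 bases before to 50 after the start) are printed first. All 10 genes had a window. The ER stress element was searched as CCAAT, 9 bases of any kind, then CCACG, the second such element (ERSE-II) as ATTGG, 1 base of any kind, then CCACG, the XBP1-type element as TGACGTGG or TGACGTGA, the C/EBP-ATF core as TGATG, 1 base of any kind, then AA, and the cyclic AMP element as TGACGTCA, each on both strands. The C/EBP-ATF core was found in 5 of the 10 windows (Atf3, Chac1, Herpud1, Asns and Trib3) and in 3.97% of 32851 windows of all genes. The matches of Atf3, Chac1 and Herpud1, upstream of the RefSeq start, are shown on the gene's strand, with the match in capitals and lower case on either side. That of Atf3 lies within the GENCODE gene (chr1:191170296-191218039), which begins farther upstream. Positions are chr1:191183396-191183483 (minus strand) for Atf3, chr2:119351009-119351096 for Chac1, chr8:94386277-94386364 for the Herpud1 core, and chr8:94386337-94386427 for the Herpud1 ERSE-II element.
Atf3: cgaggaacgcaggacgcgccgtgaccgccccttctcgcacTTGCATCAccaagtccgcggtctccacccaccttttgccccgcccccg
Chac1: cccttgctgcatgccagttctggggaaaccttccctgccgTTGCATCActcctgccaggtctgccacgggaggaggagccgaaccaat
Herpud1, core: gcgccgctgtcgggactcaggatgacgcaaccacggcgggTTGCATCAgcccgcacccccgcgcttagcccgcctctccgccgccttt
Herpud1, ERSE-II: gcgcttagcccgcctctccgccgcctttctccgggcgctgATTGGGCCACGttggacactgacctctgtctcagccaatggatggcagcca

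In Atf3, Chac1 and Herpud1 the core lay on the opposite strand as TGATGCAA. The matches of Atf3 and Herpud1 started 110 and 112 bases upstream of the RefSeq start and that of Chac1 farther upstream. The core of Asns (TGATGAAA, 23 bases upstream, chr6:7693225-7693232) and that of Trib3 (TGATGTAA, chr2:152344039-152344046, on the opposite strand, 14 bases past the RefSeq start) lay beyond a transcript start, that of Asns within a GENCODE exon and that of Trib3 by the RefSeq start only, since the GENCODE gene begins farther downstream. Hspa5 was the only gene of the 10 with the full ER stress element, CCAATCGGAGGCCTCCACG (chr2:34772025-34772043), which 0.119% of all windows held. That match starts 65 bases upstream of the RefSeq start but, like that of Asns, lies within an exon of the GENCODE annotation, where the gene starts earlier. Its window also held the XBP1-type letters TGACGTGA (chr2:34771933-34771940), found in 0.441% of all windows and shown in capitals within chr2:34771893-34771969.
Hspa5: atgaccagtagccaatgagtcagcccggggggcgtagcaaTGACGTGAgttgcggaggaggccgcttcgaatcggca
Herpud1 alone held ERSE-II, found in 0.0365% of all windows. No window of the 10 held TGACGTGG (0.676% of all windows) or the cyclic AMP element (1.79%), and the windows of Ddit3, Xbp1, Dnajb9 and Atf4 held none of the searched letters. The Dnajb9 window (chr12:44210019-44210318, minus strand) lay wholly within the GENCODE gene, which begins at 44210326. Sequence upstream of that start was thus not searched.

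The libraries were checked before the genes were read. Yap1 itself was 29.5 ± 4.46 TPM (SD, n = 6) in WT and 2.02 ± 0.775 (SD, n = 6) in KO livers, a difference of -3.36 on the log2(TPM + 1) scale (exact permutation within sex, two-sided p = 0.005, the smallest that 400 arrangements allow). Steps in the lowest values put the depth at approximately 23304550 to 33073084 reads per library, and 14321 to 15482 genes were above 0. Correlations of log2(TPM + 1) across genes between libraries of a group were 0.967 to 0.990 over 12 pairs. Of the 12278 tested genes, 54.9% passed an adjusted p of 0.05 between genotypes (limma, Benjamini-Hochberg), 50.1% of all tested being higher and 4.82% lower in KO, and the median log2 difference of all tested genes was 0.35. After a median-of-ratios rescaling, which sets the typical gene of each library to a common level, that median was -0.04 and 39.4% passed, 20.6% higher and 18.8% lower. Genotype calls of the 10 genes are therefore given on both scales.

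Summed markers were compared between genotypes by exact permutation within sex. The hepatocyte sum was lower in KO on both scales (adjusted p = 0.0343, and 0.00667 after rescaling). The endothelial sum passed on neither scale (0.07 and 0.0857), and the neutrophil sum on the deposited scale only (0.0343 and 0.115). The other sums passed as higher on both. The marker counts in this paragraph are on the deposited scale unless the rescaled one is named. Summed macrophage markers lay at 92.2 to 312 TPM in WT and 563 to 1158 TPM in KO, with 10 of 10 genes called higher (9 of 9 without Gpnmb, which passed the filter only through its KO level). Summed bile duct markers lay at 37.6 to 71.3 and 284 to 745 TPM, with 4 of 6 tested genes called higher and 1 lower. Spp1 made up most of that sum (33.8 of 50.4 TPM on average in WT and 492 of 535 in KO), Epcam was the gene called lower and Krt19 did not pass. Stellate markers lay at 26.5 to 53.8 and 112 to 252 TPM, with 5 of 8 called higher (4 higher and 1 lower after rescaling). The collagens Col1a1, Col1a2 and Col3a1 gave 62.0, 48.8 and 67.4 of the 212 TPM in KO, while Lrat, the retinol-storage enzyme of these cells, lay at 3.20 to 9.25 TPM in WT and 1.64 to 5.79 in KO. Dividing-cell markers lay at 2.64 to 7.97 and 21.4 to 48.5 TPM, 8 of 8 called higher, of which 4 (Mki67, Cdk1, Ccnb1 and Plk1) passed the filter only through their KO level. Plasma and B cell markers summed to 155 ± 27.6 TPM (SD, n = 6) in WT and 423 ± 44.9 (SD, n = 6) in KO, with 3 of 5 tested genes called higher. Sdc1 alone, which hepatocytes also express, gave 148 of the 155 and 406 of the 423 TPM, Tnfrsf17 stayed at or near 0, and Ighm and Igkc were listed at 0 everywhere. Neutrophil markers lay at 0.294 to 21.8 and 13.5 to 47.1 TPM (4 of 5 called higher, 3 of 4 without Ngp, which passed the filter only through its KO level, and 1 of 5 after rescaling), and endothelial markers at 75.8 to 113 and 86.4 to 152 TPM (1 of 7 higher and 2 lower, 0 and 3 after rescaling). The hepatocyte markers, led by albumin and apolipoproteins, were abundant in every library, at 78264 to 106115 TPM in WT and 63292 to 86476 in KO (2 of 7 called higher and 1 lower, 0 and 3 after rescaling). The part of these cell types in the results below was not tested, and in bulk tissue fewer cells of a type and less RNA per cell cannot be told apart.

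Between genotypes, 4 of the 10 stress genes passed the threshold on the deposited scale, against the 54.9% of all tested genes given above: Asns, Atf3 and Ddit3 were higher and Herpud1 was lower in KO livers. The median log2 difference of the 10 genes was 0.12, beside 0.35 for all tested genes. After rescaling, 3 of 10 passed (39.4% of all tested genes), with Asns higher and Herpud1 and Xbp1 lower, and the median of the 10 was -0.32. Asns and Herpud1 thus passed on both scales. Hspa5, Dnajb9, Atf4, Trib3 and Chac1 passed on neither. For no gene of the 10 did all 6 KO values lie on one side of all 6 WT values, which was the case for 30.6% of tested genes. After rescaling it was the case for Herpud1 alone, and for 18.9% of tested genes. The limma p-values set each difference against the spread between these mice.

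**Figure D1:**
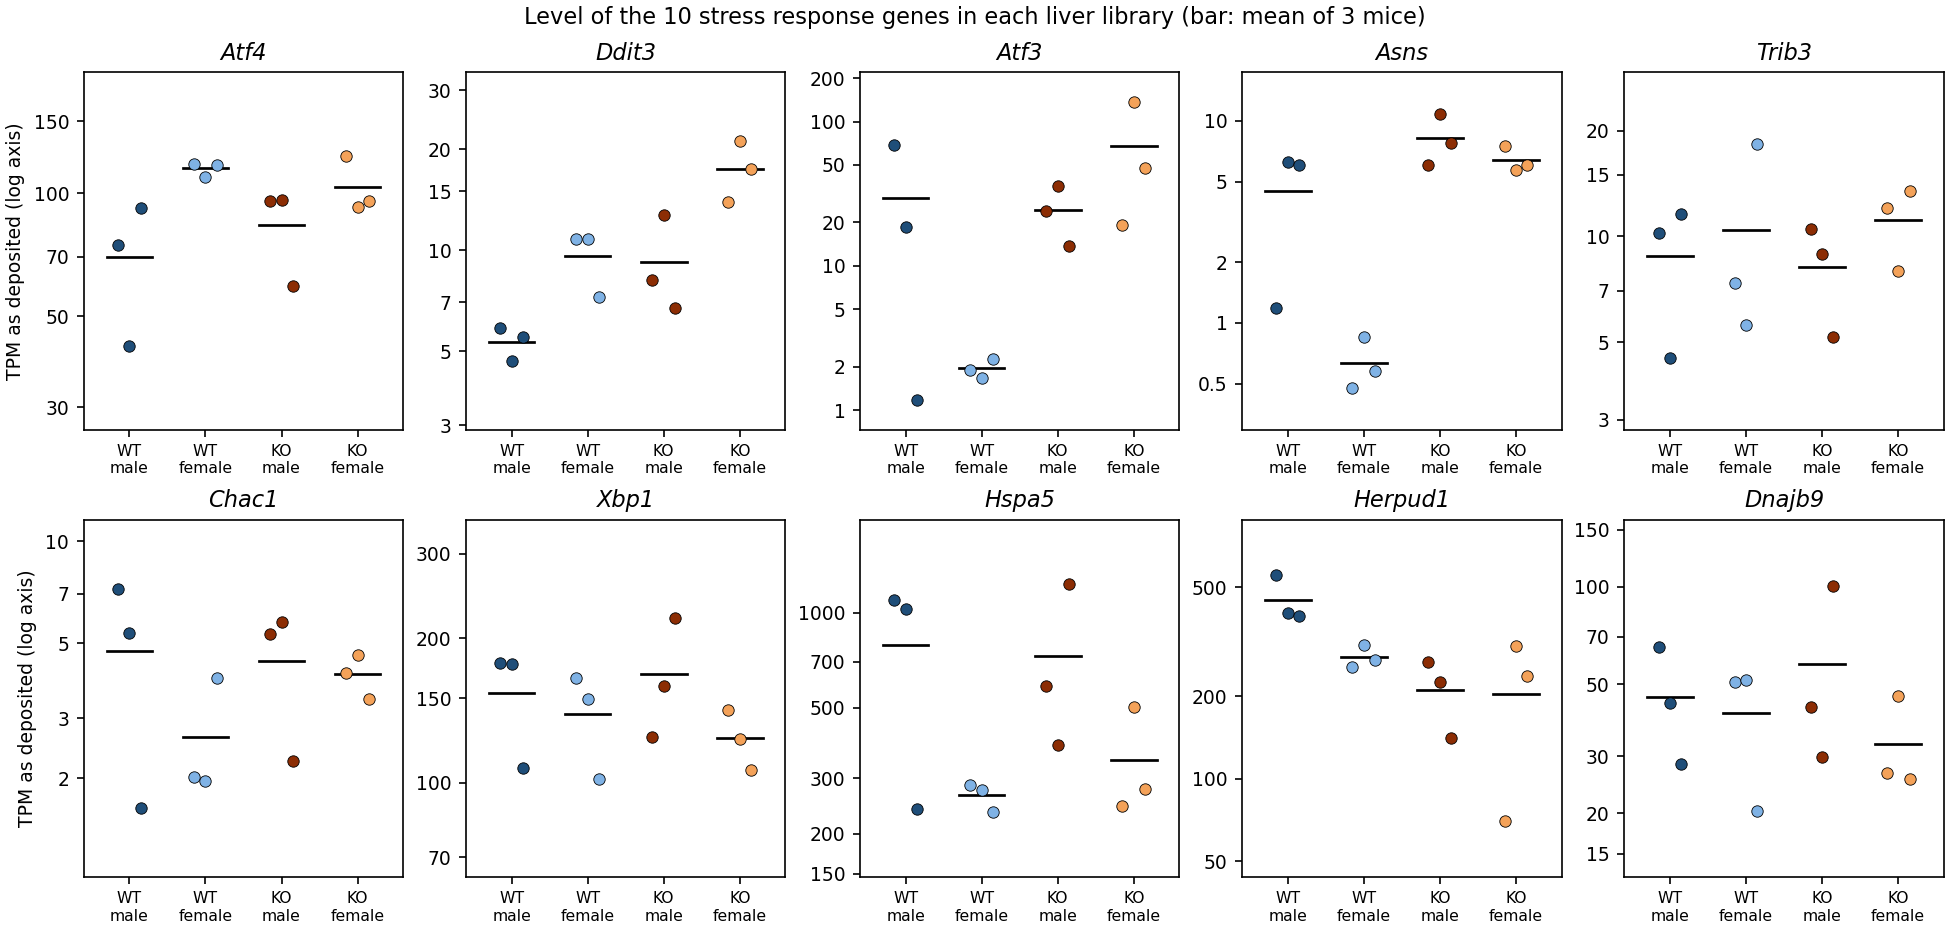
TPM as deposited (log axis, a separate range for each gene) of the 10 stress response genes in the 4 groups; each point is 1 mouse and each bar the mean of 3. Asns in WT females lies between 0.476 and 0.848 TPM, under every KO value, while Hspa5 spans 240 to 1098 TPM within the WT males alone.

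ATF4 is the transcription factor on which the eIF2 alpha kinases converge. Its mRNA stood at 74.9, 42.3 and 92.1 TPM in the WT males and 118, 110 and 117 TPM in the WT females. In KO males it was 95.7, 96.4 and 59.3 TPM, and in KO females 124, 92.5 and 95.7 TPM. The WT males lay below all WT females, and the KO values overlapped both. The genotype difference was 0.07 on the log2 scale (SE 0.189, limma adjusted p = 0.770), and -0.39 after rescaling (adjusted p = 0.107). The spread of Atf4 was narrow beside that of its targets, with the highest library 2.92 times the lowest.

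Ddit3 codes for CHOP, a C/EBP family factor induced downstream of ATF4. It was 5.84, 4.67 and 5.50 TPM in WT males, 10.8, 10.8 and 7.26 in WT females, 8.13, 12.8 and 6.70 in KO males, and 13.9, 21.2 and 17.5 in KO females. KO animals lay above WT animals of their own sex in both sexes, but the WT females overlapped the KO males. Females lay above males in each genotype. Ddit3 rose by 0.72 on the log2 scale in KO (SE 0.160, limma adjusted p = 0.00193), a fold of 1.65 on the log2(TPM + 1) scale. After rescaling the difference was 0.31 (adjusted p = 0.186), so the call rests on the deposited scale. These values correspond to 51 to 182 reads per library. The exons of Ddit3 overlap those of Mars, the methionyl-tRNA synthetase gene on the other strand (up to 50.9 TPM). They also overlap, on the same strand, exons of ENSMUSG00000116429, the Ddit3 entry listed at 0 in every library. The counter and its use of strand are not given in the sources used here, so reads of this locus are uncertain.

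Relative to Atf4 within each library, Ddit3 stood at a mean log2 ratio of -3.62 ± 0.362 (SD, n = 6) in WT and -2.89 ± 0.521 (SD, n = 6) in KO. A ratio within a library does not move with the scaling. The ratio ranged from -4.06 to -3.18 in WT and from -3.56 to -2.12 in KO, so the ranges overlapped. The KO females held the highest value, in KO female 2.

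ATF3, a stress-induced and immediate-early factor of the ATF/CREB family, had the widest spread of the 10 genes. Atf3 was 68.3, 18.6 and 1.17 TPM in the WT males and 1.89, 1.66 and 2.28 TPM in the WT females. In KO males it was 24.1, 35.5 and 13.8 TPM, and in KO females 19.1, 137 and 47.9 TPM. The highest library was 117 times the lowest, and the WT males alone covered most of this range. All 3 KO females lay above all 3 WT females, while WT male 1 lay above all KO males. Over both sexes Atf3 rose by 2.43 on the log2 scale (SE 0.813, limma adjusted p = 0.0216). With 1 library left out the difference ranged from 1.93 to 3.13. It was 3.13 (adjusted p = 0.00140) without WT male 1, the WT library with the highest value, and 2.02 (adjusted p = 0.0508) without WT male 3, the one with the lowest. After rescaling it was also 2.02 (adjusted p = 0.0837).

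In females the Atf3 difference was 4.13 (limma adjusted p = 0.00571), a fold of 17.5, and after rescaling 3.83 (adjusted p = 0.0162). The size depended on single libraries, at 3.42 (adjusted p = 0.0245) without KO female 2 and 4.81 (adjusted p = 0.00497) without KO female 1. In males it was 0.73 (adjusted p = 0.548). The difference between these effects did not pass the interaction test (-3.40, limma adjusted p = 0.482). Without WT male 3 it did, at -4.76 (adjusted p = 0.0218).

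The genes whose level ran closest to Atf3 over the 12 libraries were Junb, Btg2 and Gdf15, at a root mean square difference of 0.610, 0.630 and 0.671 log2 units after each gene's mean was removed, beside 1.94 for Atf3 around its own mean. Junb codes for a subunit of AP-1, Btg2 is an immediate-early antiproliferative gene and Gdf15 codes for a stress cytokine. Junb ranged from 25.6 to 446 TPM, Btg2 from 6.56 to 484 TPM and Gdf15 from 3.97 to 276 TPM over the libraries. Their KO minus WT differences were 2.05, 2.84 and 1.87 on the log2 scale, given as a description only, since genes chosen for a profile like that of Atf3 share its direction by that choice.

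Asparagine synthetase, coded by Asns, makes asparagine from aspartate and glutamine and is a standard readout of ATF4. Asns was 1.19, 6.26 and 6.07 TPM in WT males and 0.476, 0.848 and 0.581 TPM in WT females. It was 6.04, 10.9 and 7.74 TPM in KO males and 7.51, 5.68 and 6.01 TPM in KO females. The WT females and WT male 1 were low, and WT males 2 and 3 reached the level of the KO animals. The low values rest on 12, 22 and 20 reads in the WT females and 32 in WT male 1, against 134 to 248 reads in the KO libraries. Asns rose by 1.54 on the log2 scale in KO (SE 0.311, limma adjusted p = 0.00103), a fold of 2.90, and by 1.18 after rescaling (adjusted p = 0.0162). With each library left out in turn the difference stayed between 1.36 and 1.74, with adjusted p between 0.000306 and 0.00321.

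The rise of Asns was 2.18 in females (limma adjusted p = 0.000748), with all KO above all WT females, and after rescaling 1.93 (adjusted p = 0.00345). With a pseudocount of 0.1 in place of 1 it was 3.17 in females and 2.15 over both sexes, since the WT female values lie near the pseudocount. In males the difference was 0.90 (adjusted p = 0.0654), with overlapping values. The interaction was -1.28 (limma adjusted p = 0.498). Without WT male 1, the male with the low value, it was -1.85 (adjusted p = 0.0114).

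Set against Atf4 in the same library, Asns showed the tightest group of any ratio computed: the log2 ratio was -4.04, -4.02 and -3.99 in the KO females. In WT females it was -7.96, -7.02 and -7.66. The WT males ranged from -5.97 to -2.76 and the KO males from -3.98 to -2.94. The ratio in KO females thus lay above that of all WT females and within the range of the WT males.

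Trib3, a pseudokinase induced by ATF4 and CHOP, and Chac1, an enzyme that breaks down glutathione and another ATF4 target, did not pass between genotypes. Trib3 was 10.3, 4.50 and 11.6 TPM in WT males, 7.37, 5.59 and 18.4 in WT females, 10.5, 8.93 and 5.15 in KO males and 12.1, 7.99 and 13.5 in KO females. WT female 3 was the highest library and WT male 2 the lowest, and the groups overlapped throughout. The Trib3 difference was 0.09 (limma adjusted p = 0.809) and, after rescaling, -0.33 (adjusted p = 0.403).

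Chac1 was 7.24, 5.38 and 1.64 TPM in WT males, 2.01, 1.96 and 3.95 in WT females, 5.33, 5.76 and 2.24 in KO males and 4.09, 4.63 and 3.43 in KO females. Its lowest value was in WT male 3, the library that also held the lowest Atf3. The Chac1 difference was 0.25 (limma adjusted p = 0.453) and, after rescaling, -0.11 (adjusted p = 0.811). Asns, Trib3 and Chac1 are all textbook ATF4 targets with a core match in their windows, as given above, and of these Asns alone passed between genotypes. Atf3 and Herpud1, the other members with a core match, passed on the deposited scale, and Herpud1 also after rescaling. Ddit3, without a core match, passed on the deposited scale.

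**Figure D2:**
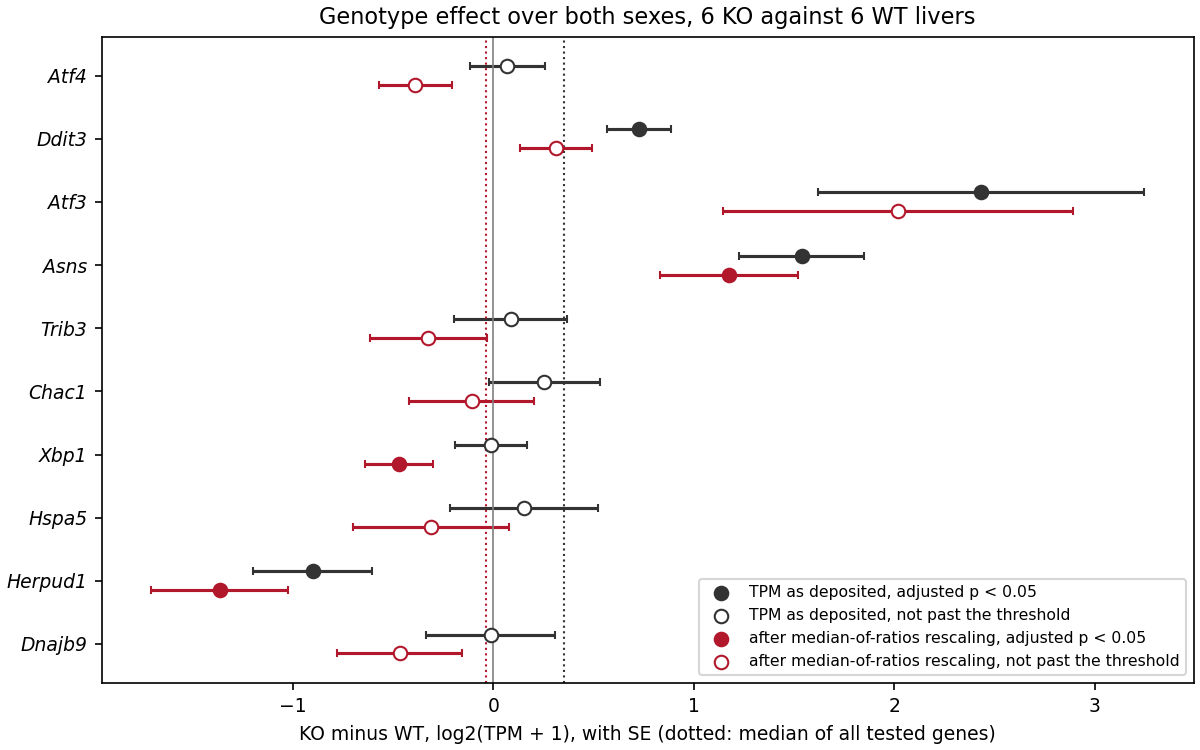
Genotype difference (KO minus WT, log2(TPM + 1) units, with the SE of the limma fit) of the 10 genes on the deposited and the rescaled scale; filled points passed an adjusted p of 0.05 and dotted lines mark the median of all tested genes. Asns lies above and Herpud1 below 0 on both scales, while Atf4, Trib3, Chac1 and Hspa5 change sign with the scale and passed on neither.

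Xbp1 codes for the factor that IRE1 activates by splicing. Xbp1 mRNA of all forms was 177, 177 and 107 TPM in WT males, 166, 149 and 102 in WT females, 125, 159 and 221 in KO males and 142, 123 and 106 in KO females. It had the smallest spread of the 10 genes, with the highest library 2.17 times the lowest, and the groups overlapped. On the deposited scale the difference was -0.01 (SE 0.180, limma adjusted p = 0.964). After rescaling Xbp1 fell by 0.47 (adjusted p = 0.0417), a call made on that scale only.

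Hspa5 codes for BiP, the main HSP70 chaperone of the ER and the classical readout of the ATF6 and XBP1 arms. It was the most abundant of the 10 genes, with a mean of 531 TPM over all libraries. Its values were 1098, 1023 and 240 TPM in WT males, 285, 275 and 235 in WT females, 584, 382 and 1229 in KO males and 244, 504 and 278 in KO females. WT males 1 and 2 and KO male 3 stood at 1023 TPM or more, and every other library at 584 TPM or less. The genotype difference was 0.15 (SE 0.369, limma adjusted p = 0.742) and, after rescaling, -0.31 (adjusted p = 0.554). The highest library was 5.03 times the lowest within KO and 4.68 times within WT, a spread wider than the difference between the genotypes.

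Dnajb9 codes for ERdj4, an ER co-chaperone that binds BiP and IRE1. It was 65.0, 43.7 and 28.3 TPM in WT males, 50.9, 51.4 and 20.4 in WT females, 42.6, 29.8 and 101 in KO males and 26.6, 46.1 and 25.5 in KO females. KO male 3 was the highest library, as for Hspa5 and Xbp1. The difference between genotypes was -0.01 (SE 0.322, limma adjusted p = 0.972) and, after rescaling, -0.47 (adjusted p = 0.254).

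Herpud1 codes for an ER membrane protein of the degradation machinery (ERAD) that is induced by ER stress, and was the member called lower on both scales. It was 554, 404 and 392 TPM in WT males, 256, 307 and 270 in WT females, 266, 226 and 141 in KO males and 70.1, 306 and 237 in KO females. All KO males lay below all WT males. Among females, KO female 1 was far below the others and KO female 2 lay within the WT range. Herpud1 fell by 0.90 on the log2 scale (SE 0.297, limma adjusted p = 0.0202), a level 1.87-fold lower, and by 1.37 after rescaling (adjusted p = 0.00648), where all 6 KO values lay below all 6 WT values. Without KO male 3 the difference was -0.76 on the deposited scale (adjusted p = 0.0564).

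Herpud1 and Hspa5 are both induced by ER stress, and their ratio differed between libraries. The log2 ratio of Herpud1 to Hspa5 was -0.99, -1.34 and 0.71 in WT males and -0.15, 0.16 and 0.21 in WT females. It was -1.13, -0.76 and -3.13 in KO males and -1.80, -0.72 and -0.23 in KO females. The mean was -0.23 ± 0.779 (SD, n = 6) in WT and -1.30 ± 1.04 (SD, n = 6) in KO, and the ranges overlapped. KO male 3 held the highest Hspa5 and the second-lowest Herpud1 of the 12 libraries.

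**Figure D3:**
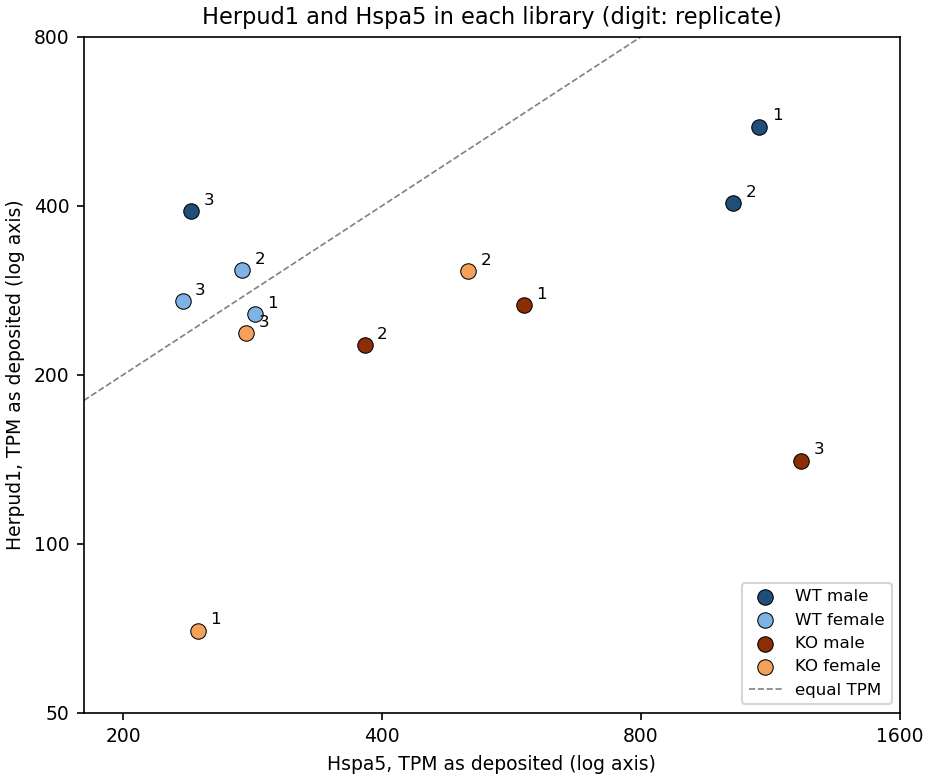
Herpud1 against Hspa5 in each library, in TPM as deposited (both axes log), with the line of equal TPM. Herpud1 exceeds Hspa5 in WT male 3 and WT females 2 and 3 only, and KO male 3 lies farthest below the line, at 141 TPM of Herpud1 and 1229 TPM of Hspa5.

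Within males, 2 of the 10 genes passed on the deposited scale, beside 46.1% of all tested genes: Ddit3 rose by 0.65 (limma adjusted p = 0.0372) and Herpud1 fell by 1.12 (adjusted p = 0.0456). These are also the 2 whose male groups did not overlap, beside 54.3% of tested genes. After rescaling Herpud1 alone passed, at -1.70 (adjusted p = 0.0215). Within females, 3 of 10 passed, beside 33.8% of all tested genes: Atf3, Asns and Ddit3, the last by 0.80 (adjusted p = 0.0175, and 0.189 after rescaling). Those 3 were again the genes without overlap, beside 51.3% of tested genes. For the female Herpud1 difference of -0.68 the adjusted p was 0.239.

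The male calls depended on single libraries. Without any 1 of the 3 WT males or without KO male 2, neither Ddit3 nor Herpud1 passed in males, with limma adjusted p of 0.0552 to 0.159 for Ddit3 and 0.0585 to 0.127 for Herpud1. Ddit3 was also lost without KO male 1 (0.0518) or KO female 3 (0.0505), and Herpud1 without KO male 3 (0.175) or any 1 of the WT females (0.0575 to 0.0582). In these fits the difference of Ddit3 lay between 0.41 and 0.70, beside 0.65 with all libraries, and that of Herpud1 between -1.21 and -0.85, beside -1.12. Only without WT male 2 or KO male 2 for Ddit3, and WT male 1 or KO male 3 for Herpud1, was it smaller than with all libraries. Asns, in contrast, passed in males without WT male 2 (1.19, adjusted p = 0.0323) or WT male 3 (1.17, adjusted p = 0.0304). In females Ddit3 did not pass without WT female 3 (0.63, limma adjusted p = 0.0777) or without KO female 2 (0.66, adjusted p = 0.0691), beside 0.80 with all libraries.

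In the test of the difference between the sexes' genotype effects, limma called 0 of the 10 genes, beside 0.912% of tested genes, and 2 (Atf3 and Asns) had an unadjusted p under 0.05, beside 8.85% of tested genes. Between WT males and WT females, Asns alone passed, with males higher by 1.57 (limma adjusted p = 0.0296; 1.80 and 0.0245 after rescaling; 2.36 and 0.0162 with a pseudocount of 0.1), beside 5.74% of tested genes. Leaving out WT male 2 or any 1 of the 3 WT females raised its adjusted p to between 0.0745 and 0.136, at differences of 1.27 to 1.66. With no filter the Asns call was also lost (1.57, limma adjusted p = 0.0671). With a covariate for the 2 mice with animal numbers under 100, Asns was lost (1.61, adjusted p = 0.0582) and Ddit3 was called. Asns and Herpud1 were higher, and Atf4 and Ddit3 lower, in every WT male than in every WT female, 4 of 10 genes without overlap beside 33.5% of tested genes. In this comparison 5 of the 10 genes had an unadjusted limma p under 0.05, beside 25.6% of tested genes. After rescaling 3 of 10 did, beside 2930 of 12226 tested genes.

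WT male 3 decided several of these values. Without it, Hspa5 and Atf3 were higher in WT males than in WT females, Hspa5 by a fold of 4.01 (limma adjusted p = 0.00895) and Atf3 by 3.65 on the log2 scale (adjusted p = 0.00603), and Atf4 was lower by a difference of -1.02 (adjusted p = 0.0252). With it, the difference of Hspa5 was 1.29 (adjusted p = 0.156). Between KO males and KO females limma called 0 of 10 genes, beside 0.0814% of tested genes, with 1 gene (Ddit3) at an unadjusted p under 0.05, beside 5.33% of tested genes. Ddit3 was lower in all KO males than in all KO females, the 1 gene of 10 without overlap, beside 9.5% of tested genes.

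**Figure D4:**
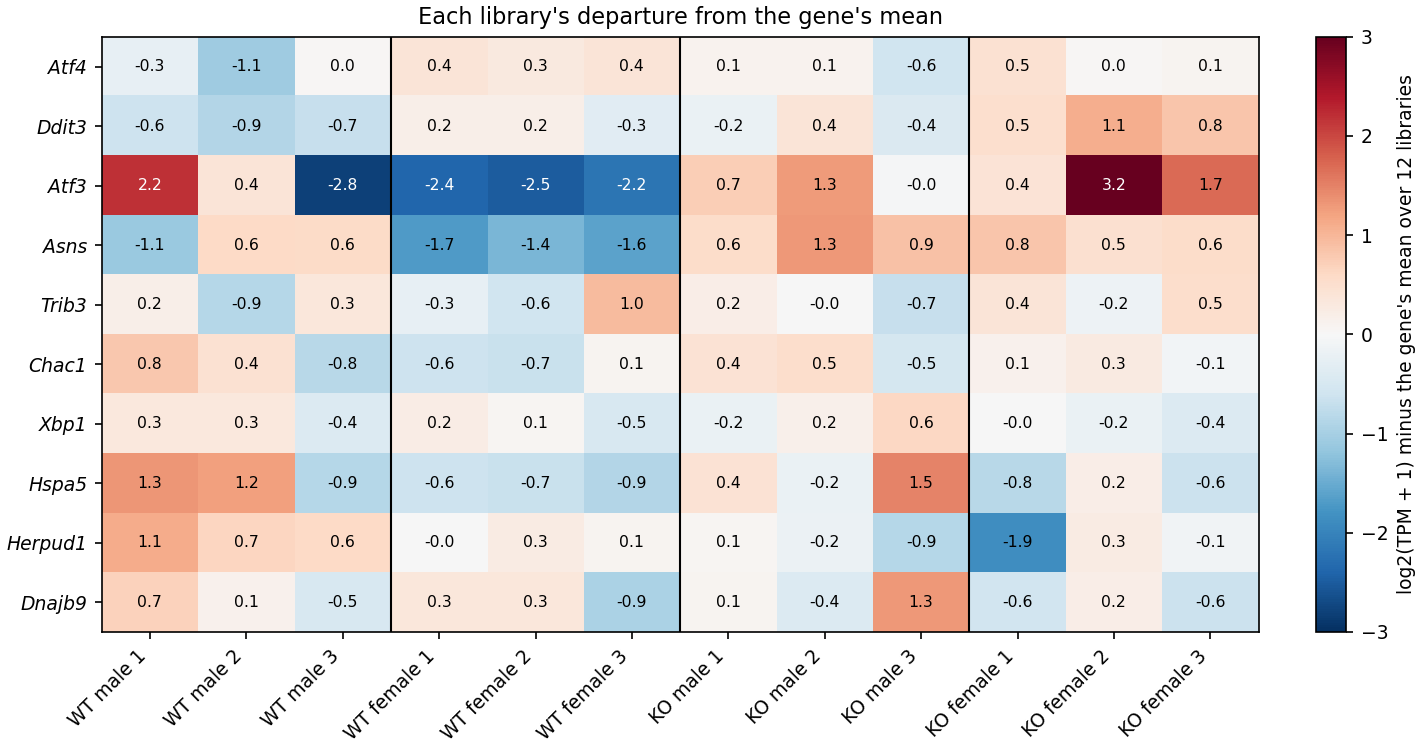
Departure of each library from the gene's mean over 12 libraries, in log2(TPM + 1) units, with the value written in each cell and vertical lines between the groups. The high Hspa5 of WT males 1 and 2 and KO male 3 and the low Atf3 and Asns of the WT females stand out, and no library is high in all 10 genes.

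The wider pathway was read from lists that left the 10 genes out. Their counts are to be read beside the shares of all tested genes: 50.1% higher and 4.82% lower on the deposited scale, 20.6% higher and 18.8% lower after rescaling. Of 26 genes for the sensors and their control, which include Ern1 (IRE1), Eif2ak3 (PERK) and Atf6, 15 were higher and 0 lower in KO on the deposited scale, and their median difference was 0.40 beside 0.35 for all tested genes. On the rescaled values 4 were higher and 4 lower (median -0.01). The largest called differences were those of Creb3l1 (1.28, and 1.00 after rescaling), Ppp1r15a (1.20, and 0.77) and Creb3l2 (0.94, and 0.51), the last of which passed on the deposited scale only (limma adjusted p = 0.0648 after rescaling). Creb3l1 and Creb3l2 code for membrane-bound factors of the ATF6 type, and Ppp1r15a for GADD34, which restores translation by dephosphorylating eIF2 alpha. Ppp1r15a was 9.35 ± 4.42 TPM (SD, n = 6) in WT and 22.6 ± 7.04 (SD, n = 6) in KO, and passed on both scales (limma adjusted p = 0.00125 and 0.0467).

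Among ATF4 and CHOP targets, 25 of 30 genes were tested, 13 were higher and 0 lower (median 0.60). On the rescaled values 6 were higher and 3 lower (median 0.18). Of these 25, 3 (Psat1, Aldh18a1 and Tnfrsf10b) had a WT mean under 0.5 TPM and entered the test only through their KO level, so their direction was fixed by the filter. Among the other 22, 10 were higher and 0 lower (median 0.50), and after rescaling 4 were higher and 3 lower (median 0.07). Tnfrsf10b, the death receptor gene that CHOP activates, was 0.255 ± 0.109 TPM (SD, n = 6) in WT and 3.42 ± 1.01 (SD, n = 6) in KO. Aldh18a1, an enzyme of proline synthesis, was 0.449 ± 0.203 TPM (SD, n = 6) in WT and 2.54 ± 0.901 (SD, n = 6) in KO. Fgf21, a hepatocyte hormone of fasting and stress, rose by 1.32 (limma adjusted p = 0.0184), with overlapping values and an adjusted p of 0.0954 after rescaling. Of the aminoacyl-tRNA synthetases, which load tRNAs with amino acids, 11 of 21 were higher and 0 lower (median 0.32), and after rescaling 2 were higher and 4 lower (median -0.13). Vars led them, at 15.5 ± 1.44 TPM (SD, n = 6) in WT and 44.6 ± 5.45 (SD, n = 6) in KO, a difference of 1.46 (1.02 after rescaling). Gars differed by 0.87 (0.42 after rescaling) and Lars by 0.75 (0.31 after rescaling, where limma's adjusted p was 0.0777 and the call was lost). Ppp1r15a is also counted among the ATF4 and CHOP targets, and Nars and Wars stand in both of the latter lists.

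Of 26 ER chaperones and folding enzymes, 10 were higher and 0 lower, with a median of 0.25, and after rescaling 1 was higher and 3 lower (median -0.21). Dnajc10, a co-chaperone that reduces disulfides, was 12.9 ± 1.14 TPM (SD, n = 6) in WT and 27.1 ± 6.61 (SD, n = 6) in KO and passed on both scales (limma adjusted p = 1.55e-05 and 0.000553). Fkbp11 and Ero1l rose by 0.68 and 0.67 on the deposited scale only. Of 24 ERAD genes, the group to which Herpud1 belongs, 13 were higher and 0 lower (median 0.28), and after rescaling 2 were higher and 2 lower (median -0.17). Edem2 and Man1b1, mannosidase-family genes that mark glycoproteins for removal, rose by 1.05 and 0.92, and by 0.59 and 0.47 after rescaling. Ube2j1, an ER ubiquitin-conjugating enzyme, rose by 0.66 on the deposited scale only (0.21 after rescaling, limma adjusted p = 0.108).

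Of 27 genes for translocation into the ER and its vesicle coats, 9 were higher and 0 lower (median 0.18), and after rescaling 1 was higher and 6 lower (median -0.28). Kdelr3, at 0.247 ± 0.167 TPM (SD, n = 6) in WT and 1.63 ± 0.830 (SD, n = 6) in KO, likewise entered the test only through its KO level, and without it 8 of 26 were higher and 0 lower, and after rescaling 0 and 6. Srprb (0.56) and Spcs2 (0.53) passed on the deposited scale only, and stood at 0.12 and 0.078 after rescaling (limma adjusted p = 0.711 and 0.712). Stress responses outside the ER were listed for comparison. Of 18 cytosolic heat shock genes 0 were higher and 1, Dnaja1, was lower, by a difference of -0.63 (limma adjusted p = 0.00525; -1.09 after rescaling), with a median of 0.05 (0 and 5 after rescaling, median -0.40). Of 12 mitochondrial folding genes 2 were higher, Clpx (1.11) and Lonp1 (0.54), and 0 lower, with a median of 0.11 (0 and 7 after rescaling, median -0.35). Neither of these passed after rescaling, where Clpx was 0.65 (limma adjusted p = 0.242) and Lonp1 0.083 (0.516). No gene of these lists passed the interaction threshold.

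The chaperone list was highest in KO male 3 and WT male 1, both among the 3 libraries with high Hspa5, but was about as high in KO male 1, with 584 TPM of Hspa5, as in WT male 2, with 1023. Centred on each gene's mean over the 12 libraries, the list median was 0.34 and 0.28 in WT males 1 and 2 but -0.49 in WT male 3, and between -0.43 and -0.32 in the WT females. It was 0.28, 0.21 and 0.66 in the KO males and -0.05, 0.07 and -0.10 in the KO females. Of the 26 genes, 26 were above their own mean in KO male 1, 23 in KO male 3, 20 in KO male 2, 19 and 17 in WT males 1 and 2, and 2 in WT male 3. The cytosolic heat shock list was also highest in WT males 1 and 2, at 0.48 and 0.41, and its next values were 0.28 in KO male 3 and 0.28 in KO female 2. Over the 22 ATF4 and CHOP targets that did not enter the test through KO alone, all 6 KO libraries (0.02 to 0.37) lay above all 6 WT libraries (-0.42 to -0.0060), with KO male 3 and WT male 1 next to each other. The same held for the sensors, the ERAD genes and the tRNA synthetases, on a scale where the median tested gene was 0.35 higher in KO. Of single tested genes, 30.6% also had KO and WT libraries without overlap on that scale. Library medians of the lists were not computed after rescaling, where the median genotype differences of these lists lay between -0.17 and 0.07.

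**Figure D5:**
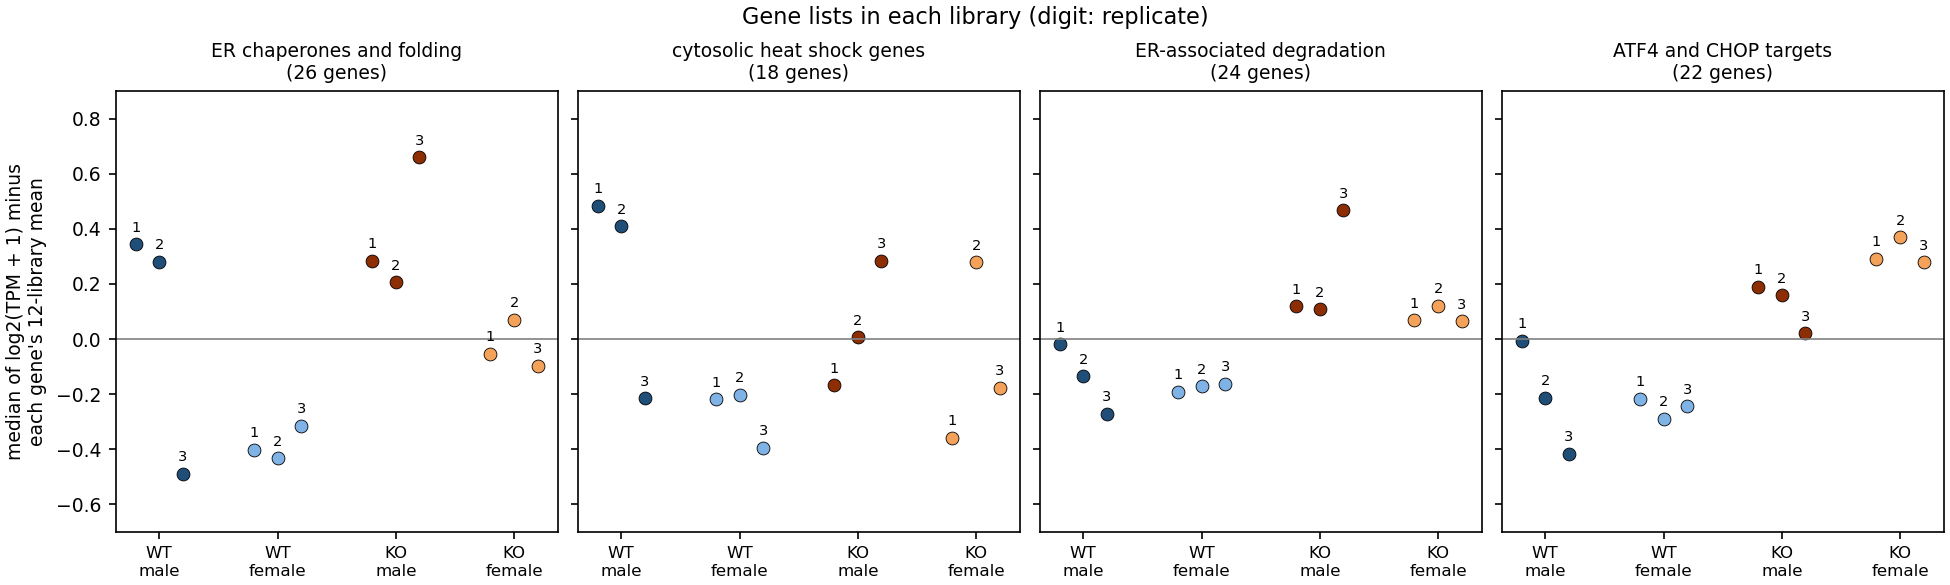
Median over 4 gene lists (without the 3 ATF4 and CHOP targets that entered the test only through KO) of log2(TPM + 1) minus each gene's mean over the 12 libraries, for every mouse (digits are replicate numbers). ER chaperones reach 0.66 in KO male 3 and 0.34 in WT male 1, and both the ERAD genes and the ATF4 and CHOP targets lie above 0 in the 6 KO and below 0 in the 6 WT libraries on this deposited scale, KO male 3 (0.02) and WT male 1 (-0.0060) lying closest in the latter list.

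Over the 12 libraries the genes nearest to Hspa5 were Hyou1, Hsp90aa1 and Atp2a2, at root mean square differences of 0.205, 0.257 and 0.288 log2 units, beside 0.877 for Hspa5 around its own mean. Hyou1 codes for another ER chaperone, Hsp90aa1 for a cytosolic heat shock protein and Atp2a2 for the calcium pump of the ER. Hyou1 ranged from 38.3 to 285 TPM. The genes nearest to Atf4 were Sf3b5 (0.107), Mrps9 (0.120) and Tmem9 (0.121), those nearest to Ddit3 were Ngp (0.253), Mdk (0.256) and Mettl18 (0.294), and those nearest to Xbp1 were Lyst (0.142), Mdn1 (0.153) and Gm26566 (0.165). Ngp, which is also among the neutrophil markers above, and Mdk stayed under 2.44 TPM, where few reads set the level.

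The authors' deposited table holds its own comparison of KO with WT, and for several members its values differed from the TPM of the same table. For Herpud1 the authors' deposited table gave a log2 fold change of -1.92 with an FDR listed as 0 at 2 decimals, where the log2 ratio of mean TPM was -0.81. For Hspa5 the authors' deposited table gave -1.11 (FDR 0.01), where the mean TPM was 526 in WT and 537 in KO. For Dnajb9 and Xbp1 the authors' deposited table gave -0.83 and -0.68 (FDR 0.02 for both), where the log2 ratios of mean TPM were 0.06 and -0.0043. Over all tested genes the signed median of the authors' deposited log2 fold changes minus the rescaled TPM differences was 0.039. Gaps of opposite sign cancel in that median, so it does not give the size of a typical gap. On the rescaled scale Hspa5 stood at -0.31, Dnajb9 and Xbp1 at -0.47 each and Herpud1 at -1.37. For Asns, Atf3 and Ddit3 the authors' deposited table gave 0.72 (FDR 0.35), 1.04 (FDR 0.14) and 0.58 (FDR 0.23). The 4 members under an FDR of 0.05 in the authors' deposited table were thus Herpud1, Hspa5, Dnajb9 and Xbp1, all lower in KO, 4 of 10 beside 30.6% of the tested genes in that table, and of these Herpud1 and Xbp1 also passed as lower in the rescaled TPM. How that comparison was fitted is not given in the sources used here.

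Positions of the genes were taken from the GENCODE annotation of GRCm38. Atf4 lies at chr15:80255184-80257541, Ddit3 at chr10:127290774-127296288, Atf3 at chr1:191170296-191218039, Asns at chr6:7675169-7693254 and Xbp1 at chr11:5520659-5525893. Hspa5 (chr2:34771970-34777547), Chac1 (chr2:119351229-119354381) and Trib3 (chr2:152337422-152344032) share a chromosome. Herpud1 lies at chr8:94386438-94395377 and Dnajb9 at chr12:44205559-44210326. All are annotated as protein-coding.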

How the data were processed

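TPM values were deposited by the authors in 1 table with a column for each of 12 livers, per the file headers. The submitters' processing notes name edgeR and GRCm38; the aligner, counter, annotation and use of strand are not given in the sources used here. The authors' signed fold change, log2 fold change and FDR columns, per the file headers, were only quoted. All sample columns matched 1 sample, leaving 0 unmatched. The 10 members and all gene lists were chosen with earlier results of these data known.

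Values were analysed as log2(TPM + 1), a pseudocount of 1, for genes whose mean reached 0.5 TPM, with limma 3.58.1 in R 4.3.3 (eBayes with an intensity trend) and Benjamini-Hochberg adjustment over all tested genes, threshold 0.05, two-sided. The genotype effect had sex as covariate; effects within a sex, between sexes and the interaction (male minus female effect) came from 1 model of 4 group means. Scripts were tested on simulated data. Fold changes on this scale understate changes of low genes. Depth is approximate, since it rests on GENCODE exon lengths, and TPM cannot show amounts of RNA per liver.

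Named were all members, Yap1, up to 3 called genes of largest difference per pathway list and the 3 genes nearest to each of Hspa5, Atf4, Atf3, Ddit3 and Xbp1. Marker sums were compared by exact permutation within sex. Alternatives were median-of-ratios rescaling, TPM without the 20 most abundant genes, a pseudocount of 0.1, no filter, each library left out, a covariate for 2 mice with animal numbers under 100 (WT female 3 and KO female 1), and no sex covariate. Promoter windows and sequences are those of RefSeq (GRCm38.p6). The Atf3 promoter was added after its match was seen.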

Additional observations from a re-analysis of the deposited data

How the results depend on the processing

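On the deposited scale the genotype count of 4 of 10 genes lay between 3 and 4 with any 1 library left out; Herpud1 was lost without KO male 3 and Atf3 without WT male 3. In males the count of 2 was 1 after rescaling, 1 without the 20 most abundant genes, 0 with no filter, and 0 to 2 with 1 library left out. In females 2 to 3 passed with 1 library left out. The interaction count of 0 became 1 without WT male 1 (Asns) or WT male 3 (Atf3), a range of 0 to 1, and the WT sex count of 1 was 0 with no filter and 0 to 4 with 1 library left out; with the animal-number covariate that 1 gene was Ddit3, not Asns. Genotype differences that changed sign did not pass on either side: after rescaling Atf4 -0.39, Trib3 -0.33, Chac1 -0.11 and Hspa5 -0.31, and Atf4 -0.0050 without the 20 most abundant genes. With 1 library left out, they ranged from -0.10 to 0.15 for Atf4, -0.069 to 0.28 for Trib3, -0.13 to 0.067 for Xbp1, -0.15 to 0.34 for Hspa5 and -0.26 to 0.12 for Dnajb9. The summed endothelial markers changed from 0.25 to -0.21 on the log2 scale after rescaling, those of hepatocytes from -0.24 to -0.71, and those of neutrophils from 1.69 to 1.28 (exact permutation, adjusted p 0.0343 and 0.115). With a pseudocount of 0.1 the counts of called genes did not change, and the Asns differences grew from 1.54 to 2.15 over both sexes, from 2.18 to 3.17 in females and from 1.57 to 2.36 between the sexes in WT. Yap1 differed by -3.42 to -3.30 with 1 library left out and by -3.74 after rescaling. The cause was not tested. No paired analysis was possible because the labels give no replicate numbers that link mice across groups. Among the members whose reads could be estimated, Asns in WT females had the fewest (12 to 22 reads).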
